A study of Bos taurus with 8 samples.

Results

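CCN1, CCN2, THBS1, ADAMTS1, F3, CRIM1, ANKRD1 and MYOF are a group of secreted, membrane and nuclear products whose genes are known to answer stretch and the transcriptional coactivators YAP and TAZ. They were followed in lactating mammary gland that was full of milk and in gland just emptied. The group was taken by symbol: every probe set (a group of short probes for 1 transcript) whose platform annotation names exactly 1 of these 8 symbols was a member, which gave 18 probe sets of 24016, or 8 of the 9155 genes with 1 symbol. THBS1 had 6 probe sets, CRIM1 4, ADAMTS1 and ANKRD1 2 each, and CCN1, CCN2, F3 and MYOF 1 each. The genes were chosen with earlier values of the full against empty contrast in these same arrays known, so their own differences in that contrast are given as a description, with no test.

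The cattle (Bos taurus) were 4 lactating Holstein cows, and each had its mammary gland biopsied in both states, so that 8 samples were measured. Milk had last been removed 12 h before the biopsy named full and 0 h before the one named empty. Each RNA was hybridised to its own single-colour array, and the levels below are the authors' log2 RMA values, on which a difference of 1 is 2-fold. The sources used here give neither the order of the biopsies nor which gland of the udder each came from, and these cannot be told apart from the state. A biopsy is a mixture of cells, in which a change in the number of cells of a type and a change in RNA per cell cannot be told apart.

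YAP and TAZ are held in the cytoplasm by the Hippo kinases and move to the nucleus when cells are stretched or spread, where they bind the TEAD factors on DNA. CCN1, CCN2 and ANKRD1 are the textbook readouts of that step, and stretch also reaches several of these genes through actin, the MRTF cofactors and serum response factor. Alveoli of the lactating gland are distended by stored milk between milkings and collapse when myoepithelial cells contract at milk removal.

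The tissue label was checked first. The milk protein genes LALBA and CSN2 lay at 14.16 to 14.26 and 13.77 to 13.91 in the 8 arrays, and the epithelial factor ELF5 at 13.26 to 13.61. Cows 2 and 4 each had a full library unlike the others, since their correlations with the rest had medians of 0.969 and 0.975, while those of the other 6 libraries were at least 0.986. Over all probe sets, the full minus empty differences had an SD that ran from 0.17 (cow 3) and 0.19 (cow 1) to 0.30 (cow 4) and 0.38 (cow 2). The same 2 libraries were each extreme for some, but not all, of the platform's controls of RNA integrity. The 5' minus 3' level of actin was -1.36 in the full library of cow 4 and between -0.07 and 0.07 elsewhere, and that of gapd was -3.31 in the full library of cow 2 and between -2.13 and -1.53 elsewhere. That of ef1a was 0.75 in the full library of cow 2 and between 1.25 and 1.96 elsewhere. The full library of cow 4 thus stood apart for actin only, and that of cow 2 for gapd and ef1a. The part of RNA integrity in the values below was not tested. Differences below are therefore given cow by cow or also for cows 1 and 3 alone.

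Of the 18 probe sets, 16 had a higher mean in full gland and 2 a lower one, where 49.9% of all probe sets had a higher mean. A higher level in full gland in all 4 cows was seen for 11 of the 18, from 7 of the 8 genes, where 4.22% of all probe sets were higher in all cows. None of the 18 was lower in all cows (5.97% of all probe sets were). The median difference was 0.50 over the 18 probe sets and -0.00027 over all probe sets, and with cows 1 and 3 alone 15 of the 18 were higher, with a median of 0.22. A mean of at least 1.5-fold together with a higher level in all cows was reached by 9 of the 18, where 0.104% of all probe sets (25 of 24016) reached it. Since the genes were chosen from this contrast, nothing is read from these shares. In the limma model blocked by cow, with Benjamini-Hochberg adjustment over the whole table, 0 probe sets passed an adjusted p of 0.05 (0% of all probe sets, the members among them), and 600 had an unadjusted p under 0.05 (2.5%).

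**Figure D1:**
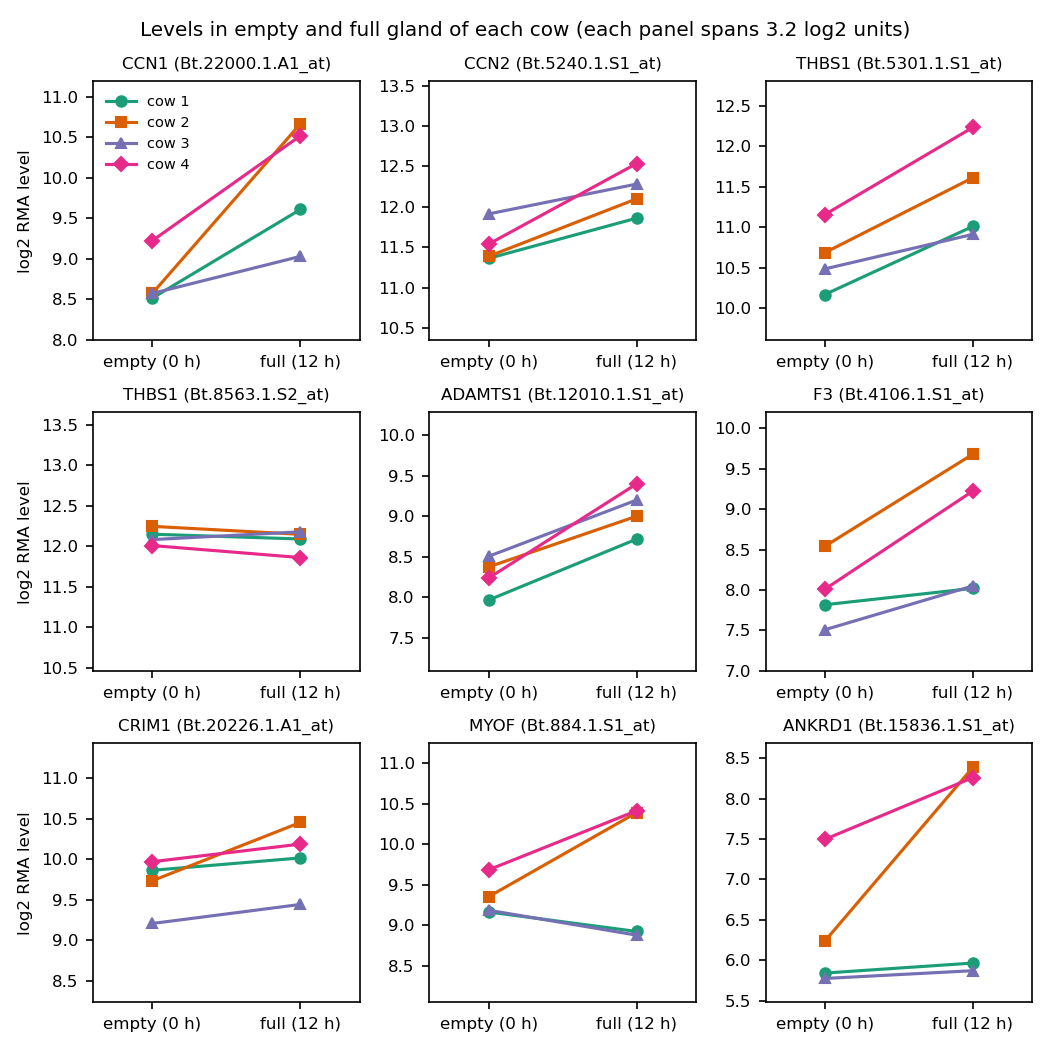
Log2 RMA level (y axis, 3.2 log2 units in every panel) in the empty (0 h) and full (12 h) gland of each cow, with a line joining the samples of 1 cow, for 9 of the 18 probe sets. CCN1, CCN2, ADAMTS1, F3 and the THBS1 probe set Bt.5301.1.S1_at slope upwards in all 4 cows, the THBS1 probe set Bt.8563.1.S2_at stays between 11.86 and 12.25, and MYOF slopes downwards in cows 1 and 3.

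CCN1 is a secreted matricellular protein that binds integrins and heparan sulfate and is made within minutes of a stimulus. Its level in the empty gland was 8.51, 8.57, 8.57 and 9.22 in cows 1 to 4, and in the full gland 9.61, 10.67, 9.03 and 10.52. All 4 cows were higher when full, but the groups overlapped, since the full gland of cow 3 lay below the empty gland of cow 4. The difference was 1.09, 2.09, 0.46 and 1.30 in cows 1 to 4, with a mean of 1.24 ± 0.67 (SD, n = 4 cows), or 2.35-fold and between 1.37-fold and 4.27-fold in single cows. This was the highest mean difference of the 24016 probe sets. Ranked from the top within each cow, it stood at 3, 18, 269 and 89 in cows 1 to 4. In cows 1 and 3 alone its mean difference was 0.78.

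CCN2, formerly connective tissue growth factor, is the closest relative of CCN1 and acts with TGF-beta on matrix production. Its level was 11.36, 11.39, 11.91 and 11.54 in the empty glands of cows 1 to 4 and 11.86, 12.10, 12.28 and 12.54 in the full ones. The lowest full value lay just under the highest empty value, which came from cow 3. The difference was 0.50, 0.71, 0.37 and 1.00, with a mean of 0.64 ± 0.27 (SD, n = 4 cows) and of 0.43 in cows 1 and 3 alone. In single cows CCN2 differed by 1.29-fold to 1.99-fold.

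THBS1 encodes thrombospondin-1, a trimeric matrix protein that binds CD36, CD47 and integrins, activates latent TGF-beta and restrains angiogenesis. Its 6 probe sets did not all go the same way, and they are described as a set of 4 and a pair, a split made after their values were seen. Bt.5301.1.S1_at had levels of 10.17, 10.68, 10.48 and 11.16 in the empty glands of cows 1 to 4 and 11.01, 11.61, 10.91 and 12.23 in the full ones. Its difference of 0.84, 0.93, 0.43 and 1.08 had a mean of 0.82 ± 0.28 (SD, n = 4 cows), 0.63 in cows 1 and 3 alone. Bt.5301.2.S1_a_at differed by 0.64, 1.00, 0.60 and 1.98, a mean of 1.06 ± 0.64 (SD, n = 4 cows) that was the second highest of all 24016 probe sets. Both of these probe sets were higher in all 4 cows, and for both the full value of at least 1 cow lay within the range of the empty values.

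A further THBS1 probe set, Bt.23493.1.S1_at, differed by 0.61, 0.81, 0.25 and 0.68 in cows 1 to 4. The dimmer Bt.5301.2.A1_at differed by 0.20 and 0.27 in cows 1 and 3 and by 1.42 and 1.38 in cows 2 and 4. The remaining pair of THBS1 probe sets, Bt.8563.1.S2_at and Bt.8563.1.S1_at, went against these. Bt.8563.1.S2_at, the brightest of the gene, had levels of 12.15, 12.25, 12.08 and 12.01 in the empty glands of cows 1 to 4 and 12.09, 12.15, 12.18 and 11.86 in the full ones. It differed by -0.05 ± 0.11 and Bt.8563.1.S1_at by -0.15 ± 0.21 (SD, n = 4 cows), each lower in 3 of the 4 cows and higher in cow 3. With cows 1 and 3 alone the pair differed by 0.02 and 0.005.

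Over the 8 arrays the levels of the 4 THBS1 probe sets that were higher in full gland correlated with each other at Pearson's r of 0.82 to 0.96. The Bt.8563 pair correlated with each other at 0.88 and with the other 4 at -0.84 to -0.45. These are descriptions over 8 arrays that share cows. Taking 1 value per gene from the brightest probe set gives THBS1 a difference of -0.05, and the mean over its 6 probe sets gives 0.51. The sources used here do not say which exons or transcripts each probe set reads.

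ADAMTS1 is a secreted metalloproteinase with thrombospondin repeats that cleaves versican and other proteoglycans. At Bt.12010.1.S1_at the empty glands of cows 1 to 4 had levels of 7.96, 8.37, 8.50 and 8.24 and the full glands 8.72, 9.00, 9.20 and 9.40. Every full gland lay above every empty one, the only such case among the 18 probe sets, where 0.396% of all probe sets had full above empty with no overlap. The difference was 0.75, 0.63, 0.70 and 1.16, with a mean of 0.81 ± 0.24 (SD, n = 4 cows). It was 0.72 in cows 1 and 3 alone, so that of the 18 probe sets only CCN1 had a larger mean difference in those 2 cows. In cows 1 and 3 it ranked 13 and 18 from the top of all probe sets, in cow 4 it ranked 135 and in cow 2 it ranked 1247. The dimmer Bt.12010.2.S1_at differed by 0.45, -0.15, 0.58 and 0.80.

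**Figure D2:**
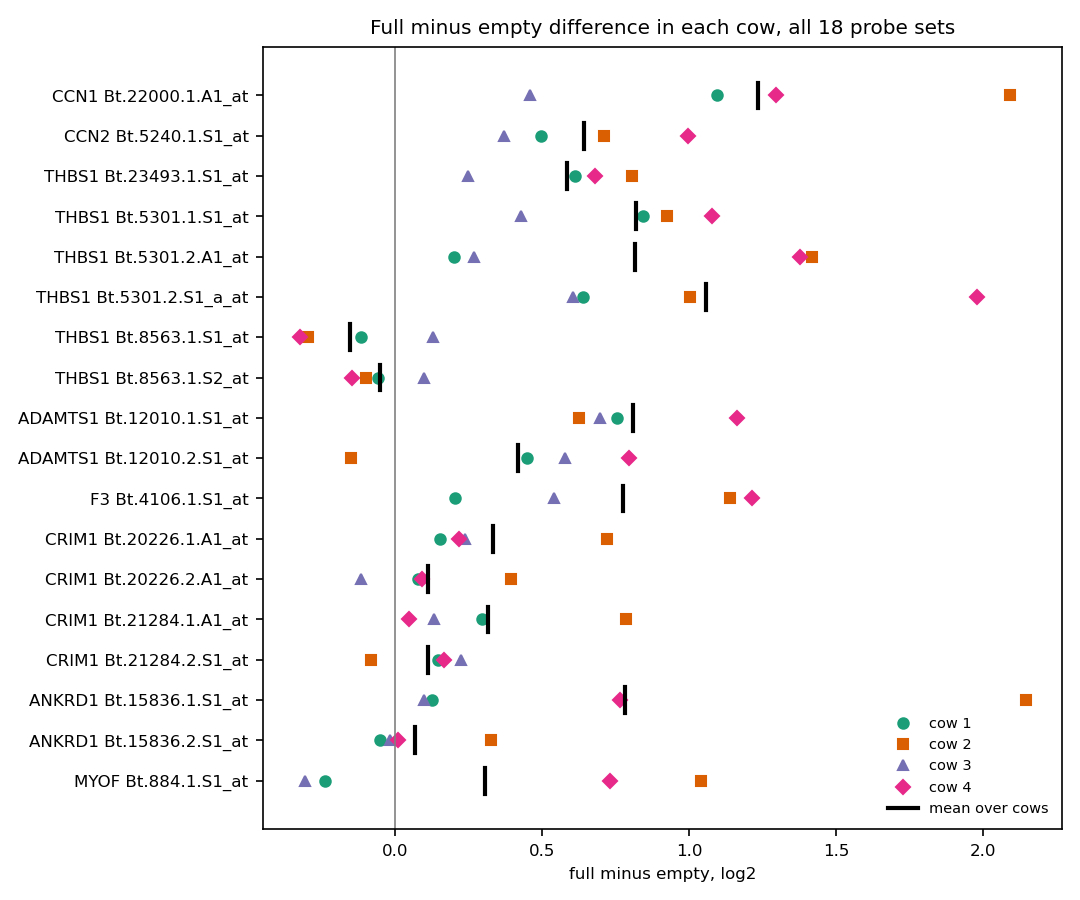
Full minus empty difference in log2 (x axis) for each of the 18 probe sets (y axis, gene and probe set), with 1 point per cow and a black bar at the mean over the 4 cows. CCN1 and ANKRD1 reach above 2 in cow 2, the 2 lowest THBS1 probe sets lie at or below 0.13 in every cow, and MYOF splits into 2 cows below 0 and 2 above 0.7.

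F3, tissue factor, is the membrane receptor for factor VII that starts blood clotting and is made by epithelial and perivascular cells. Its level was 7.82, 8.54, 7.51 and 8.01 in the empty glands of cows 1 to 4 and 8.02, 9.68, 8.05 and 9.22 in the full ones. All cows were higher when full, by 0.20, 1.14, 0.54 and 1.21, while the full glands of cows 1 and 3 lay below the empty gland of cow 2. The mean difference was 0.77 ± 0.49 (SD, n = 4 cows), and 0.37 in cows 1 and 3 alone.

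CRIM1 is a transmembrane protein with cysteine-rich repeats that binds bone morphogenetic proteins. Its brightest probe set, Bt.20226.1.A1_at, had levels of 9.86, 9.74, 9.21 and 9.97 in the empty glands and 10.02, 10.46, 9.44 and 10.19 in the full glands of cows 1 to 4. It differed by 0.15, 0.72, 0.24 and 0.22, and cow 2 alone was past 0.3. The mean was 0.33 ± 0.26 (SD, n = 4 cows), 0.19 in cows 1 and 3 alone. Bt.21284.1.A1_at was also higher in all cows, by 0.29, 0.78, 0.13 and 0.05, a mean of 0.31 ± 0.33 that was 0.16 without cow 2 and 0.21 in cows 1 and 3 alone. The other 2 probe sets were each higher in 3 of the 4 cows. Bt.20226.2.A1_at differed by 0.08, 0.39, -0.12 and 0.09, with a mean of 0.11 ± 0.21 that turned to -0.02 in cows 1 and 3 alone. Bt.21284.2.S1_at differed by 0.14, -0.08, 0.22 and 0.17, with a mean of 0.11 ± 0.13 and of 0.18 in cows 1 and 3 alone.

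MYOF, myoferlin, is a membrane protein with calcium-binding C2 domains that acts in membrane fusion and repair. Its level was 9.16, 9.35, 9.18 and 9.68 in the empty glands of cows 1 to 4 and 8.92, 10.39, 8.88 and 10.41 in the full ones. The full glands of cows 2 and 4 were the highest and those of cows 1 and 3 the lowest of all 8. The difference was -0.24, 1.04, -0.31 and 0.73, a mean of 0.31 ± 0.68 (SD, n = 4 cows) that was smaller than its own spread. In cows 1 and 3 alone its mean difference was -0.27.

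ANKRD1 is a nuclear and sarcomeric ankyrin repeat protein, best known in stretched muscle. At Bt.15836.1.S1_at the empty glands of cows 1 to 4 had levels of 5.84, 6.24, 5.78 and 7.50 and the full glands 5.97, 8.38, 5.87 and 8.26. Cows 1 and 3 lay below the lower quartile of their arrays (5.98 to 6.03) in both states, while cow 4 was high in both. The difference was 0.12, 2.15, 0.10 and 0.76, with a mean of 0.78 ± 0.96 (SD, n = 4 cows) and of 0.11 in cows 1 and 3 alone. The second probe set, Bt.15836.2.S1_at, stayed between 5.60 and 6.04 and differed by -0.05, 0.33, -0.02 and 0.01. Its mean of 0.07 ± 0.18 turned to -0.02 without cow 2 and to -0.04 in cows 1 and 3 alone. Skeletal muscle is a known source of ANKRD1, and its markers are given here beside it. Their list had a median difference of -0.09 in cow 2, where ANKRD1 differed most, and in cow 4 the muscle actin gene ACTA1 differed by 1.77 beside a list median of -0.03. Apart from MYH7, CKM and ACTA1, the genes of that list lay at 5.39 to 6.55 and were dim.

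**Figure D3:**
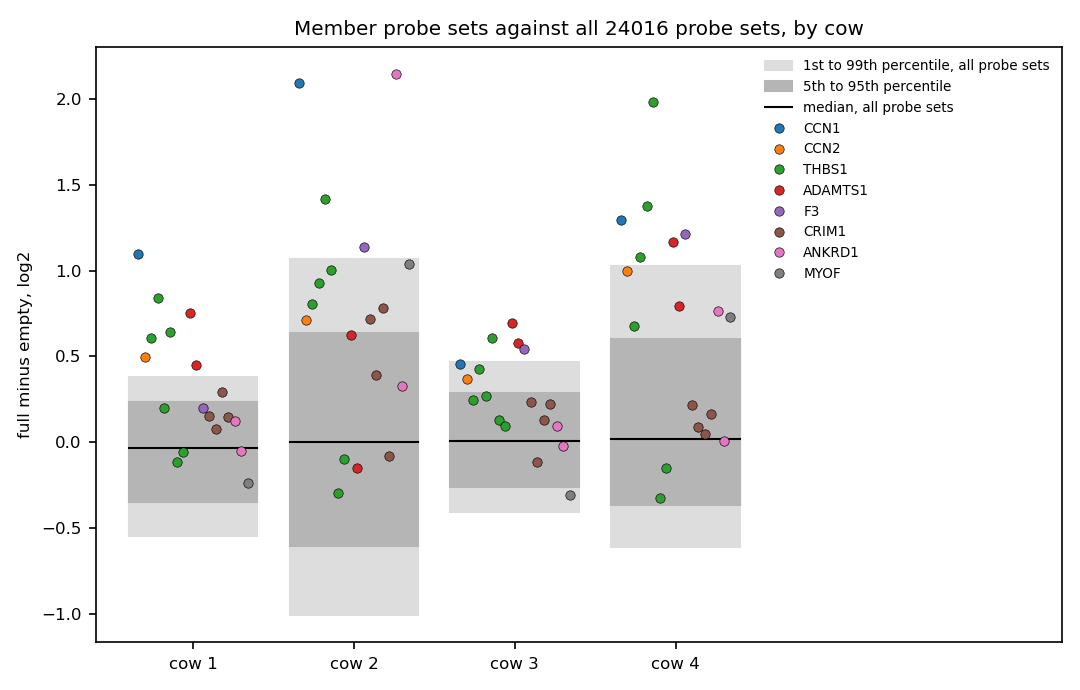
Full minus empty difference in log2 (y axis) of the 18 member probe sets (points, coloured by gene) in each cow (x axis), over the range of all 24016 probe sets in that cow (light grey, 1st to 99th percentile; dark grey, 5th to 95th percentile; black line, median). In cow 1 the 99th percentile lay at 0.38 with CCN1 at 1.09, and in cow 2 it lay at 1.07 with CCN1 at 2.09.

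The cows differed in how widely all genes varied, so the position of the members within each cow was described as well. Of the 18 probe sets 14, 14, 15 and 16 were higher in full gland in cows 1 to 4, where 41.7%, 50.004%, 51.1% and 53.5% of all probe sets were. Among the 100 probe sets of 24016 with the largest difference in a cow, members numbered 6 in cow 1 and 3 in each of cows 2, 3 and 4. As the genes were chosen from this contrast, nothing is read from these counts. The 6 in cow 1 were CCN1, CCN2, 3 of THBS1 and ADAMTS1. In cow 2 they were ANKRD1 at rank 15, CCN1 at rank 18 and THBS1 at Bt.5301.2.A1_at at rank 74. The median difference of the 18 was 0.20, 0.75, 0.24 and 0.75 in cows 1 to 4.

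The level of a cow averaged over its full and empty gland was not used to choose the genes, and was compared between cows with the F-test of the same limma fit, adjusted by Benjamini-Hochberg over all 24016 probe sets. None of the 18 probe sets passed an adjusted p of 0.05 (0.437% of all probe sets did), and 7 had an unadjusted p under 0.05 (14.8% of all probe sets did). The clearest was THBS1 at Bt.5301.1.S1_at, whose average level was 10.59, 11.15, 10.70 and 11.69 in cows 1 to 4 (limma adjusted p = 0.139). ANKRD1 had the widest range, with average levels of 5.90, 7.31, 5.82 and 7.88 (limma adjusted p = 0.244), and F3 had 7.92, 9.11, 7.78 and 8.62 (limma adjusted p = 0.202). ANKRD1 at Bt.15836.1.S1_at passed with cow 2 left out (limma adjusted p = 0.0396), where 0.545% of all probe sets did. With cows 2 and 4 left out 3 of the 18 passed, where 7.58% of all probe sets did (1820 of 24016). They were CCN2, CRIM1 at Bt.20226.1.A1_at and ADAMTS1 at Bt.12010.1.S1_at (limma adjusted p = 0.0256, 0.0114 and 0.02), in a fit with 1 residual degree of freedom that compares cow 1 with cow 3. As for the spread between cows, 17 of the 18 probe sets had a larger SD over the 4 full arrays than over the 4 empty ones, where 74% of all probe sets did. The full values also went into the contrast from which the genes were chosen, so nothing is read from this count. The 4 full arrays include the libraries of cows 2 and 4, which were unlike the others and each extreme for some of the controls of RNA integrity. Their part in this spread was not tested.

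How alike the members were across the 8 arrays was described with Pearson's r, which includes differences between cows and between states. The members were chosen from the contrast of states, so these values are a description only, and only some of the pairs are given. CCN2 and ADAMTS1 at Bt.12010.1.S1_at had r = 0.96, ANKRD1 at Bt.15836.1.S1_at and MYOF had r = 0.96, and CCN1 and THBS1 at Bt.5301.1.S1_at had r = 0.92. With the brightest THBS1 probe set, Bt.8563.1.S2_at, CCN1 had r = -0.53, and with Bt.8563.1.S1_at r = -0.71. The sign for CCN1 and THBS1 therefore depends on the probe set. CCN2 and the dimmer ADAMTS1 probe set had r = 0.71. CCN2 and ADAMTS1 were less like MYOF, both at r = 0.40, and less like CRIM1 at Bt.20226.1.A1_at, at r = 0.15 and r = 0.23. Another CRIM1 probe set, Bt.20226.2.A1_at, had r = 0.96 with ANKRD1 at Bt.15836.1.S1_at, 0.97 with ANKRD1 at Bt.15836.2.S1_at and 0.95 with MYOF.

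Among all other named genes, each at its brightest probe set, the 6 whose levels were most like CCN1 over the 8 arrays were ZNF432, LRRN1, RND3, GNA15, LYPD1 and STON1, with r from 0.935 to 0.956. GNA15, a G protein subunit, differed by 0.17, 0.71, 0.21 and 0.37 in cows 1 to 4. ZNF432 and LRRN1 differed by 0.10 and 0.11 on average, also at dim levels. The 6 most like MYOF were CNN3, PLSCR3, PCTP, PLOD2, PIGF and AMT, with r from 0.984 to 0.988. Of these CNN3, an actin-binding calponin, differed by -0.15, 0.73, -0.25 and 0.57, and PLOD2, a collagen lysyl hydroxylase, by -0.32, 0.81, -0.36 and 0.91. Over 8 arrays a high r is easily reached by the closest of 9155 genes.

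The rest of the pathway was read from lists of non-members, each gene at its brightest probe set. No gene of any list passed the limma test of full against empty (0 of 9155 genes passed, 0%, and the adjusted p of the list genes lay between 0.993 and 0.999). Over all 9155 genes the median difference was -0.0036, with 4448 genes (48.6%) higher and 4707 (51.4%) lower, and 3.59% were higher and 7.11% lower in all 4 cows.

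Of the Hippo kinases, adaptors and TEAD factors, 9 of 22 were measured, with 6 higher, 3 lower and a median of 0.10. YAP1 and WWTR1 (TAZ) were among the 13 with no probe set of 1 symbol and were not analysed here. TEAD2, a DNA-binding partner of YAP, differed by -0.37, 1.23, -0.17 and 0.79 in cows 1 to 4, and TEAD3 by -0.08, 0.51, -0.10 and 0.49. In cows 1 and 3 alone both turned, to -0.27 and -0.09. The adaptor SAV1 differed by 0.05, 0.19, -0.01 and 0.48, a mean of 0.18 ± 0.22 (SD, n = 4 cows) that was 0.07 without cow 4 and 0.02 in cows 1 and 3 alone. None of the 9 had a direction shared by all cows, and without cows 2 and 4 the median was -0.09.

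Further target genes of YAP and TAZ, taken from a published core list, numbered 8 of 16 measured, with 6 higher, 2 lower and a median of 0.11, and 0 with a direction shared by all cows. IGFBP3, which carries insulin-like growth factors, differed by 0.19 ± 0.16 and TGFB2, a growth factor, by 0.12 ± 0.13 (SD, n = 4 cows), and in cows 1 and 3 alone by 0.14 and 0.22. NT5E, the ecto-enzyme that makes adenosine from AMP, had levels of 10.51, 8.88, 10.59 and 9.50 in the full glands and 10.48, 10.12, 10.93 and 10.46 in the empty glands of cows 1 to 4. Its difference of -0.63 ± 0.58 (SD, n = 4 cows) was the lowest among the pathway lists, and was -0.16 in cows 1 and 3 alone. Without cows 2 and 4 the median of these 8 genes was -0.0025.

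Serum response factor, its targets and the actin cytoskeleton had 20 of 22 genes measured, with 16 higher, 4 lower and a median of 0.10, and 3 were higher in all 4 cows. Those 3 were CFL2, an actin-severing cofilin, at 0.34 ± 0.15, CNN2, a calponin, at 0.44 ± 0.29, and CALD1, caldesmon, at 0.25 ± 0.21 (SD, n = 4 cows). In cows 1 and 3 alone they differed by 0.22, 0.39 and 0.10, and CALD1 by 0.16 without cow 4. Without cows 2 and 4 this list had 5 higher and 15 lower, with a median of -0.05.

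Relatives of the members by gene family had 10 of 20 measured, with 6 higher, 4 lower, 0 with a direction shared by all cows and a median of 0.07. THBS4 differed by -0.64, -0.14, -0.09 and 0.03 in cows 1 to 4 and DYSF, the ferlin closest to MYOF, by -0.55, -0.52, -0.07 and 0.11. BMPER, like CRIM1 a binder of bone morphogenetic proteins, differed by 0.13, -0.06, 0.17 and 1.43. Its mean of 0.42 ± 0.68 (SD, n = 4 cows) rested on cow 4 and was 0.08 without that cow and 0.15 in cows 1 and 3 alone. THBS2, picked here after its values were seen, differed by -0.92, 1.47, 0.45 and 1.94 in cows 1 to 4. Without cows 2 and 4 the median of the relatives was -0.04.

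Receptors of the secreted members had 15 of 19 measured, with 7 higher, 8 lower and a median of -0.03. ITGB6, the epithelial integrin subunit that activates TGF-beta, was higher in all cows, by 0.12, 0.87, 0.13 and 1.02. F2RL1, the receptor cleaved by the complex of tissue factor and factor VII, was lower in all cows, by -0.06, -0.20, -0.05 and -0.30, and TGFBR1 differed by -0.27, 0.03, -0.25 and -0.03. CD36 and CD47, receptors of thrombospondin-1, differed by -0.05 and -0.03 on average and by 0.02 and -0.05 in cows 1 and 3 alone. Without cows 2 and 4 the median of the receptors was -0.03.

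Growth factors, substrates and inhibitors that act with the secreted members had 19 of 21 measured, with 12 higher, 7 lower and a median of 0.14. TIMP3, which inhibits ADAMTS enzymes, was lower in all cows, by -0.13, -0.86, -0.10 and -0.34, and TIMP1 differed by -0.25, 0.78, 0.10 and 1.02, a mean of 0.42 ± 0.59 (SD, n = 4 cows) that turned to -0.07 in cows 1 and 3 alone. VEGFC was higher in all cows, by 0.73, 0.04, 0.05 and 0.16, with cow 1 far above the other 3. VEGFA differed by -0.06, -0.39, 0.04 and -0.31, and by -0.01 in cows 1 and 3 alone. Without cows 2 and 4 this list had 3 higher and 16 lower, with a median of -0.13.

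**Figure D4:**
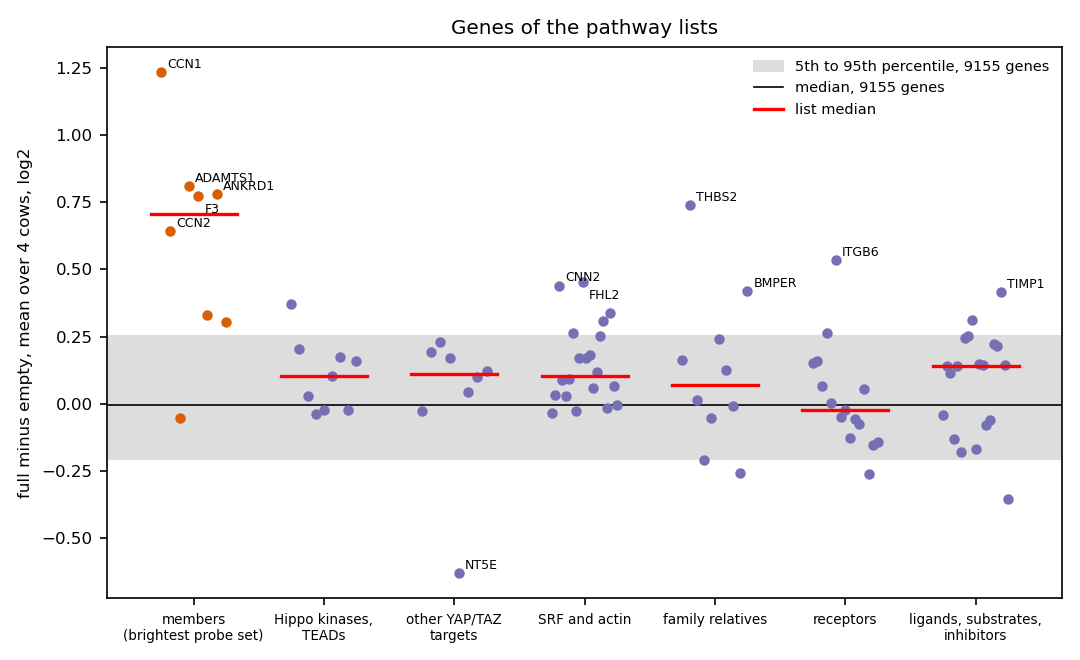
Full minus empty difference in log2, mean over the 4 cows (y axis), of each gene (point) at its brightest probe set, for the 8 members and the 6 pathway lists (x axis), with red bars at the list medians and grey at the 5th to 95th percentile of 9155 genes. The lists' medians run from -0.03 (receptors) to 0.14 (ligands, substrates and inhibitors), and THBS1 is the member at -0.05.

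Markers of the cell types that a biopsy could hold are given beside the members. Fibroblast markers (9 of 10 measured) had medians of -0.34, 0.20, -0.09 and 0.90 in cows 1 to 4, myoepithelial markers (9 of 12) -0.01, 0.18, -0.15 and 0.67, and myeloid markers (8 of 10) -0.36, 0.11, -0.13 and 0.84. Their summed levels in log2 ran from 14.10 to 15.32 in full and 14.21 to 14.81 in empty gland for fibroblasts, from 13.70 to 14.72 and 13.81 to 14.17 for myoepithelium, and from 11.67 to 12.36 and 11.85 to 12.01 for myeloid cells. Lymphocyte markers (9 of 10) had medians of -0.10, 0.36, -0.07 and 0.36, with summed levels of 11.84 to 12.41 in full and 12.04 to 12.37 in empty gland.

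Endothelial markers (9 of 10) had medians of -0.12, -0.19, 0.03 and 0.16, with summed levels of 12.29 to 12.68 in full and 12.47 to 12.73 in empty gland. Luminal markers (10 of 10) had medians of 0.04, 0.06, -0.01 and 0.02 at summed levels of 16.53 to 16.58 and 16.49 to 16.58. The brightest of them, LALBA, CSN2, CSN3 and PAEP, lay at 13.76 to 14.43, and PAEP was the highest value of every array. Whether levels so near the top of the scale can show a change was not tested. Of the luminal keratins, KRT18 differed by -0.04, 1.19, -0.05 and 1.36 in cows 1 to 4 and KRT7 by -0.41, 1.21, -0.14 and 0.80. KRT8 differed by -0.72, 0.11, 0.25 and 1.21 and KRT19 by 0.14, 0.10, 0.07 and -0.09. Adipocyte markers (5 of 7) had medians of -0.15, -0.22, -0.09 and -0.04 at 12.96 to 13.17 and 13.04 to 13.21, and skeletal muscle markers (11 of 14) of -0.04, -0.09, 0.03 and -0.03 at 11.98 to 12.27 and 11.87 to 12.16. FABP4, at 12.91 to 13.17, made up most of the adipocyte sum. The other adipocyte markers lay at 5.27 to 6.99, below the array medians of 7.08 to 7.24. The muscle sum came mostly from MYH7 at 11.02 to 11.52 and CKM at 9.67 to 10.71. The other muscle markers lay at 5.39 to 6.55, save ACTA1 in the full gland of cow 4 at 7.81. Most genes behind both sets of medians were thus dim. Platelets are a known source of thrombospondin-1, and their markers were measured for 2 of 5, PF4 and ITGA2B, with medians of 0.02, -0.49, -0.24 and 0.26 and summed levels of 6.97 to 7.56 in full and 6.82 to 8.26 in empty gland. ITGA2B lay at 5.86 to 6.06, near the lower quartile of the arrays.

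Over cows 1 and 3 alone the medians of the 9 marker lists ran from -0.24 (myeloid) to 0.02 (skeletal muscle), and that of all 9155 genes was -0.03. The part of cell composition in the members' values was not tested in any cow.

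**Figure D5:**
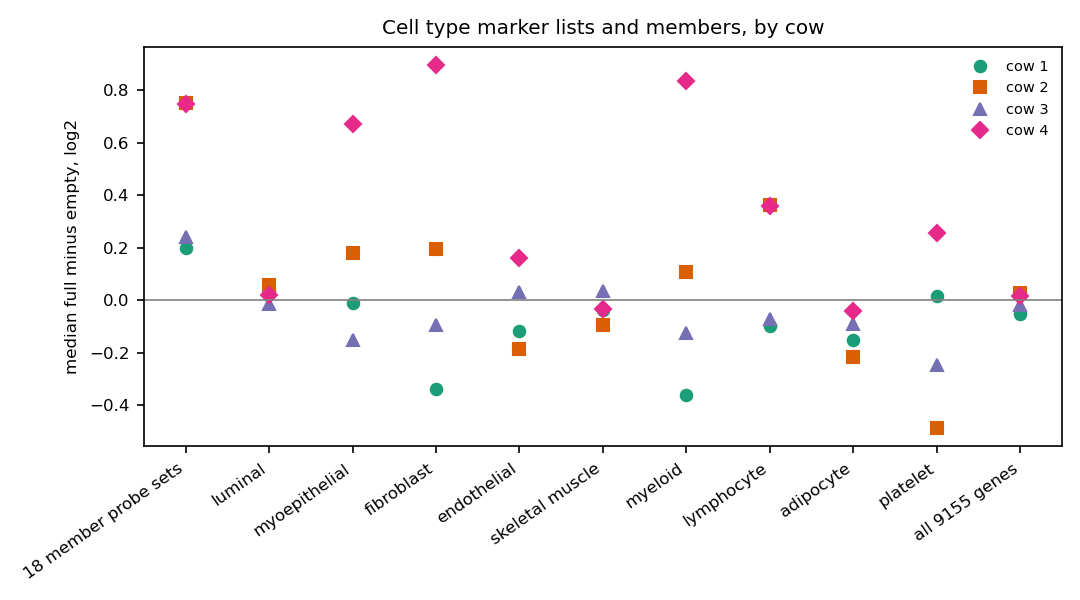
Median full minus empty difference in log2 (y axis) of the 18 member probe sets, 9 cell type marker lists and all 9155 genes (x axis), with 1 point per cow. Fibroblast, myoepithelial and myeloid lists are highest in cow 4, at 0.90, 0.67 and 0.84, and the member median is above 0 in every cow. The lists and all genes use the brightest probe set of each gene, while some members enter with several probe sets. The members were chosen from this contrast, so nothing is read from their median.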

How the data were processed

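The deposited table gives a log2 value for each probe set on each array. The authors computed these with RMA, per the submitters' processing notes, of an unstated version, and the values themselves show the log2 scale. Its quantile step hides any shift common to most genes. Reverse transcription started at the poly(A) tail, per the labels' protocols, so that probe sets far from the tail depend on intact RNA. There is no read depth on arrays, and precision is limited by their number.

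Of 24128 probe sets, 112 platform controls were left out. Of the 24016 tested, 13292 had 1 symbol, 86 several and 10638 none. Symbols were compared through entrez numbers with RefSeq genes of ARS-UCD2.0 (13263 matched, 0 changed). No sequences were given here, so none are printed.

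limma 3.58.1 in R 4.3.3 (lmFit, eBayes, two-sided) was fitted to all probe sets with state and cow as fixed terms and a threshold of 0.05 after Benjamini-Hochberg adjustment, with 3 residual and 2.81 prior degrees of freedom. Cow is a block because the sample descriptions name both samples of each cow. As a check of the pairing, the deviations of a cow's full and empty library from their group means had r = 0.457, 0.319, 0.597 and 0.525 in cows 1 to 4, while no full library had an r above -0.03 with another cow's empty one. Deviations from a group mean cancel over the cows, so a positive r within a cow itself pushes those between cows down. The negative values are therefore no separate check. The fit was tested on simulated data, in which the noise of a probe set had the same size in every array, unlike in these libraries. The simulation therefore does not say how small a difference could have passed here. Numbers of cows, not of probe sets, are n.

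The members, lists and tests were chosen with earlier results of these data known. Named were all member probe sets, the 3 lowest unadjusted p-values of each pathway list, since no gene passed, and the 6 genes most like CCN1 and MYOF, placeholder symbols passed over. Genes beyond these (CD36, CD47, VEGFC, THBS2, ACTA1, PF4, ITGA2B and tissue markers) were named after their values were seen. A gene in a list stands at its brightest probe set. Tables were made with pandas 2.3.3 and numpy 2.4.6 in Python 3.11.15, and figures with matplotlib 3.10.9.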

Additional observations from a re-analysis of the deposited data

Results flagged for a closer look

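In 3 of 54 sets of 4 values (the full levels, the empty levels and the differences of each of the 18 probe sets), 1 cow lay apart from the other 3 by Dixon's gap test at its 95% critical value, where chance gives about 1 in 20. The empty gland of cow 4 had a CCN1 level of 9.22 against 8.51 to 8.57 in the other 3 cows, with a gap of 0.917 of the range. Cow 2 had a difference of 0.72 for CRIM1 at Bt.20226.1.A1_at, a gap of 0.855 of the range. Cow 2 also had a difference of 0.33 for ANKRD1 at Bt.15836.2.S1_at, a gap of 0.84 of the range.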

How the results depend on the processing

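The count of 0 probe sets passing full against empty in limma held in each alternative fit that was run, with smallest adjusted p from 0.142 (cows 2 and 4 left out) to 1.00 and 220 (no replicate block) to 2150 (cows 2 and 4 left out) probe sets at an unadjusted p under 0.05, and 0 pathway list genes passed in any. Leaving out the replicate block cannot change a mean difference when every cow has both states, so the 16 of 18 member probe sets higher on average stayed as they were. The count was 15 to 16 with 1 cow left out and 15 without cows 2 and 4, and 16 after median centring or repeated quantile normalization. Of 144 probe set differences under alternatives, 6 changed sign, all with cow 2, or cows 2 and 4, left out, among them MYOF. The 144 include those without the replicate block, which could not change. The 1 value per gene of THBS1 moved from -0.05 to 0.51 when its probe sets were averaged. The 105 probe sets that differed between cows became 208 after median centring, 248 with an intensity trend and robust prior, 13 to 131 with 1 cow left out and 1820 without cows 2 and 4. Members passing there were 0 to 1 with 1 cow left out and 3 without cows 2 and 4. The cause was not tested. Of 176 values of pathway genes, 3 turned, all without cows 2 and 4: TEAD2 (-0.27), TEAD3 (-0.094) and TIMP1 (-0.0703). The 176 include fits that could not change a difference: no replicate block, brighter probe sets only, and the intensity trend with robust prior.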
